A study of Mus musculus with 50 samples.

Results

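The Myc, Max and Mxd network was followed in CD8+ T cells during the first 24 hours of activation. Its 10 genes (Myc, Mycn, Mycl, Max, Mlx, Mxd1, Mxi1, Mxd3, Mxd4 and Mnt) were chosen as the rows of the count table whose Ensembl identifier maps to one of these symbols. All 10 were found among the 21647 genes of the table, and all 10 had enough counts to be tested.

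Max is the common partner of the network: it dimerises with Myc, Mycn or Mycl to activate genes that carry E-box elements, and with the Mxd proteins, Mxi1 or Mnt to repress them through Sin3 corepressor complexes. Mlx, a relative of Max, pairs with Mnt, with some Mxd proteins and with the glucose-sensing factors Mlxip and Mlxipl. In T cells Myc is an early gene of antigen-receptor signalling and is known for switching on glycolysis, nucleotide and polyamine synthesis and ribosome production before the first division.

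The cells came from the spleens of 10-week-old knockout mice (KO) and wild-type mice (WT), with the strain spelled C567BL/6J in the labels, 5 mice per genotype. They were isolated with magnetic beads against CD8a. Cells of each mouse were sampled at 0h, which the labels call naive, and after 2h, 6h, 12h and 24h of culture with 2 ug/ml of plate-bound antibody to CD3e and 2 ug/ml of soluble antibody to CD28, which together stand in for antigen and costimulation. Poly(A) RNA of the 50 samples was sequenced, and library totals ran from 9571625 to 31293872 counts with a median of 23548632. In such bulk samples, fewer cells of a type and less RNA per cell cannot be told apart.

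WT mice 1 and 4 stood apart from the other 8 mice at every time. Levels are given as CPM, the counts of a gene scaled to a common library size. At 0h, 7 marker genes of immature thymocytes (among them Rag1, Rag2, Dntt, Ptcra and Cd4) summed to 13.8 to 85.4 CPM in KO mice. The sums were 1257 and 1690 CPM for WT mice 1 and 4, but 11.4 to 38.3 CPM for the other 3 WT mice, where 1 of the 7 genes was at 0. Likewise 8 genes of G2 and mitosis (Mki67, Top2a, Ccnb1, Cdk1, Plk1, Aurkb, Bub1 and Cenpe) summed to 220 to 834 CPM in KO mice, to 3806 and 4733 CPM for WT mice 1 and 4, and to 75.6 to 147 CPM for the other 3. These sums do not show the level of each gene, such as Cd4. A separate list of 2 CD4 T cell genes summed at 0h to 12.1 and 18.4 CPM for WT mice 1 and 4. That list summed to 5.22 to 13.02 CPM in KO mice, a range that overlapped. It summed to 3.54 to 5.88 CPM for the other 3 WT mice. Markers of the labelled cell type (8 genes, among them Cd3e, Cd3d, Cd8a, Cd8b1, Il7r and Ccr7) were detected in every group. At 0h they summed to 5822 to 8350 CPM in KO mice, to 3167 and 3857 CPM for WT mice 1 and 4, and to 8265 to 15998 CPM for the other 3. The 0h library of WT mouse 3 also differed, with 23.8% of its counts in its 50 highest genes and a scaling factor of 0.783. The part of these transcripts in the results was not tested. Many results that rest on WT mice are therefore given with all 5 and with mice 2, 3 and 5 only. The remaining WT values are given with all 5 alone.

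Short stretches of promoter are shown for the members that carry the canonical E-box, because CACGTG is the element that the network's own dimers bind. RefSeq promoters (300 bases: 250 before and 50 after a transcription start, build GRCm38.p6) were matched for 9 of the 10 members. None was available for Myc, so its promoter was not searched. The search for CACGTG, whose reverse complement is the same letters, found it in 4 of 11 member promoters. Capitals mark the E-box in up to 100 bases around it, written 5′ to 3′ on the strand of the gene, and the lines cover chr12:76962199-76962298 (minus strand, Max), chr5:34187877-34187960 (minus, Mxd4), chr11:74830754-74830853 (plus, Mnt) and chr11:101087203-101087302 (plus, Mlx).
Max promoter: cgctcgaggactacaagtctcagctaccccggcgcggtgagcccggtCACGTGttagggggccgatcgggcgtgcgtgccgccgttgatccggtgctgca
Mxd4 promoter: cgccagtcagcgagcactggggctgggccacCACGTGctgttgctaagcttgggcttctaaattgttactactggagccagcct
Mnt promoter: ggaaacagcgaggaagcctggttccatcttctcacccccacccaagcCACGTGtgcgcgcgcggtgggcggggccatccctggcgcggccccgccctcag
Mlx promoter: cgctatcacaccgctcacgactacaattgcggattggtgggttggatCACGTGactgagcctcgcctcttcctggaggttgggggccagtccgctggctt

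The E-box began 3 bases before the transcription start of Max, 40 bases before that of Mlx, 123 before that of Mnt and 219 before that of Mxd4. Of all 32851 promoters of the same length, 7.15% held CACGTG, and of 57 promoters found for 52 listed MYC target genes, 28.1% did. The FOXO motif GTAAACA, searched on both strands, was in 1 of 3 promoters of Mxi1 and in 3.65% of all promoters. The E2F motif TTTCCCGC was in no member promoter and in 1.07% of all promoters. A match of letters is not evidence that a factor was bound there.

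Myc, the network's main activator, is encoded at chr15:61985391-61990374 on the plus strand (GRCm38, ENSMUSG00000022346). It was by far the most abundant of the 3 activators and the member with the most counts, 763457 over the 50 libraries. It rose within 2h in KO cells and its mean was highest at 6h in both genotypes. In KO mice 1 to 5, in that order, Myc stood at 124, 142, 158, 166 and 188 CPM at 0h and at 270, 512, 340, 542 and 269 CPM at 2h. It reached 1627, 1726, 1685, 1613 and 1086 CPM at 6h and stood at 1225, 1198, 1268, 1240 and 1202 CPM at 12h and at 638, 646, 643, 691 and 630 CPM at 24h. Every KO library from 2h on was above every KO library at 0h, and every KO library at 12h was above every one at 24h. In WT mice 1 to 5 Myc stood at 388, 152, 52.3, 331 and 155 CPM at 0h and at 229, 301, 603, 183 and 427 CPM at 2h. Its later WT levels were 150, 1237, 1374, 450 and 1034 CPM at 6h, 266, 617, 877, 527 and 534 CPM at 12h, and 453, 750, 643, 629 and 658 CPM at 24h. WT mice 1 and 4 were the highest WT mice at 0h and the lowest at 2h, 6h, 12h and 24h.

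Myc averaged 1547 ± 262 CPM at 6h in KO cells, against 155 ± 24.1 CPM at 0h (SD, n = 5 mice each), a log2 change of 3.32 (SE 0.414, adjusted p = 2.08e-08, edgeR). In WT cells it averaged 849 ± 526 CPM at 6h, against 216 ± 139 CPM at 0h (SD, n = 5), a log2 change of 1.98 (adjusted p = 8.58e-05), and the change was 3.33 without WT mice 1 and 4 (adjusted p = 1.37e-11). The 2h response of Myc passed the threshold in KO cells, with a log2 change of 1.32 (SE 0.385, adjusted p = 0.00553). In all 5 WT mice the 2h value was 0.69 (SE 0.380, adjusted p = 0.173), and without WT mice 1 and 4 it was 1.87 (adjusted p = 1.59e-06). The WT values also depended on WT mouse 3, which had the lowest Myc at 0h. Without its 0h library alone the 2h value was 0.43 (adjusted p = 0.424), and without the mouse it was 0.20 (adjusted p = 0.767). After the peak, Myc at 24h was still above 0h by 2.06 in KO cells (adjusted p = 2.47e-05) and by 1.54 in WT cells (adjusted p = 0.0013; 2.51 without WT mice 1 and 4). Ordered by mean, the 10 groups ran from KO at 6h and KO at 12h down through WT at 6h, KO at 24h, WT at 24h, WT at 12h, KO at 2h, WT at 2h and WT at 0h to KO at 0h. The ranges of every pair of neighbours in this order overlapped.

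Mycn and Mycl, the other activators, are better known from embryonic and neural tissue and from lung, and both were near the limit of detection. Mycn had 515 counts in all and was at 0 in 6 libraries, and Mycl had 223 counts and was at 0 in 5. Mycn reached 3.47 and 2.88 CPM in KO mice 3 and 5 at 0h, against 0.771 CPM in the highest WT library at 0h, and the other 3 KO mice lay between 0.565 and 0.706 CPM. After 0h no library of either genotype passed 0.971 CPM for Mycn, and Mycl was at most 0.883 CPM in any library. Against 0h, Mycn fell in KO cells by 2.62 at 2h (adjusted p = 0.00829) and by 1.98 and 2.11 at 6h and 12h, and in WT cells by 2.65 at 6h and 2.27 at 12h (log2, edgeR; 4.97 and 3.5 without WT mice 1 and 4). Mycl fell by 2.06, 3.36 and 1.95 at 6h, 12h and 24h in KO cells and by 2.22 and 2.01 at 12h and 24h in WT cells (2.25 and 2.51 without these mice). These log2 values rest on a handful of reads per library and depend on the prior count of the fit. For Mycn the KO value at 6h was -1.24 without KO mouse 3 (adjusted p = 0.231), and each other Mycn call was also lost without 1 or more of KO mice 3, 4 and 5 or WT mice 2 and 5. Among the Mycl calls, that at 24h was lost in KO cells without KO mouse 5 (-1.27, adjusted p = 0.125), and both WT calls were lost without WT mouse 2.

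**Figure D1:**
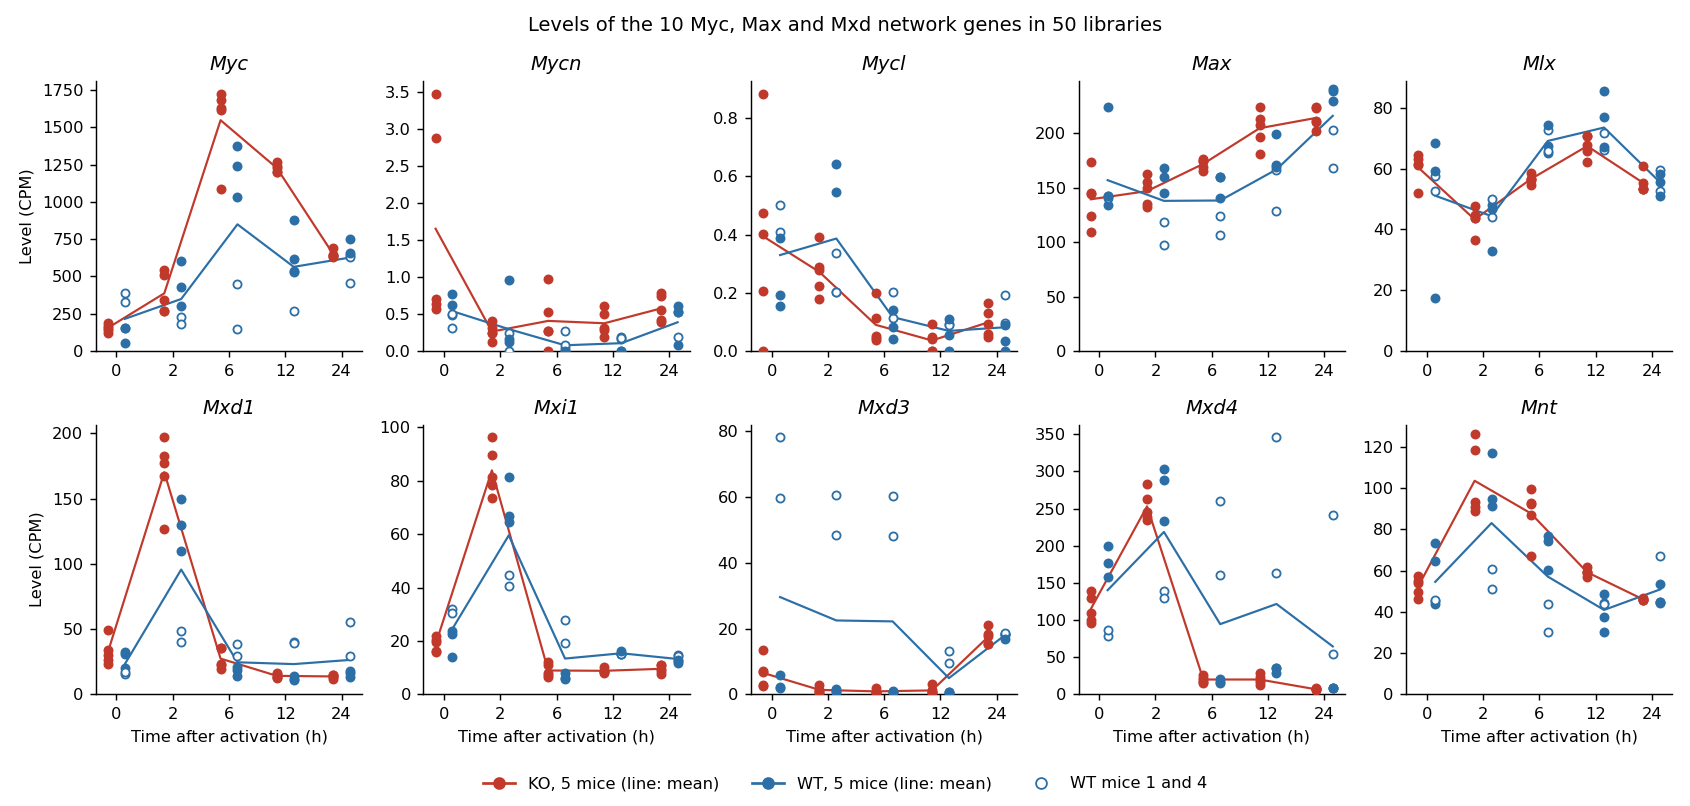
Levels of the 10 network genes in CPM (vertical axes, one scale per gene) against hours of activation (horizontal axes), with 1 point per library, KO in red and WT in blue, lines through the group means, and open points for WT mice 1 and 4. Myc peaks at 6h and Mxd1 and Mxi1 at 2h, and Mxd4 in WT mice 1 and 4 stays at 54.7 CPM or more up to 24h while the other 8 mice are at 9.37 CPM or less at 24h.

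Max, the shared dimer partner (chr12:76937269-76962201, minus strand), moved little and in steps. In KO libraries it ranged from 110 to 173 CPM at 0h, from 133 to 162 at 2h, from 165 to 176 at 6h, from 181 to 224 at 12h, then from 202 to 224 at 24h. In WT libraries it ranged from 134 to 224 CPM at 0h, from 96.9 to 168 at 2h, from 106 to 160 at 6h, from 129 to 199 at 12h, then from 168 to 240 at 24h. The ranges at 12h and 24h were above the range at 0h in KO cells, whereas in WT cells the range at each later time overlapped that at 0h. The WT range at 0h reached 224 CPM only in WT mouse 3, whose 0h library also differed in other ways. The other WT mice lay at 134 to 142 CPM at 0h, below the whole WT range at 24h. Max rose in KO cells by 0.55 at 12h (SE 0.140, adjusted p = 0.00102) and 0.62 at 24h (adjusted p = 0.000254), and in WT cells by 0.46 at 24h (adjusted p = 0.00686, and 0.50 without WT mice 1 and 4; log2, edgeR). The WT call was lost without WT mouse 2 (0.37) or WT mouse 5 (0.39). Its 6h value in KO cells was 0.30 (adjusted p = 0.0692), and with each mouse as a block it was 0.31 (adjusted p = 0.0153). Myc moved much further than Max. The level of Myc over that of Max was taken with both in CPM per kilobase of exon. It averaged 1.5, 3.45, 11.9, 7.99 and 4.03 at the 5 times in KO cells and 1.99, 3.22, 7.62, 4.35 and 3.84 in WT cells. At 0h it was 0.309 to 1.5 in WT mice 2, 3 and 5, against 3.61 and 3.11 in WT mice 1 and 4. At 6h it was 9.77 to 11.4 in WT mice 2, 3 and 5, within the KO range of 8.5 to 13.1. WT mice 1 and 4 were then at 1.87 and 4.8.

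Mlx, the Max-like partner (chr11:101087277-101092207, plus strand), dipped at 2h in KO cells, with 36.6 to 47.6 CPM against 51.9 to 64.3 CPM at 0h. The ranges did not overlap, and the log2 change was -0.48 (SE 0.163, adjusted p = 0.0167), a call lost without KO mouse 2, 3, 4 or 5 (-0.46, -0.47, -0.42 and -0.48). In WT cells Mlx rose by 0.43 at 6h (adjusted p = 0.03) and 0.52 at 12h (adjusted p = 0.00922), where the 0h range was wide, 17.3 to 68.5 CPM, with the lowest value in WT mouse 3. In WT mice 2, 3 and 5 alone the values were 0.49 (adjusted p = 0.0537) and 0.60 (adjusted p = 0.0191). The 6h value was 0.20 without WT mouse 3 (adjusted p = 0.101), and the call was also lost without KO mouse 1, 2 or 3 or WT mouse 1 or 4 (0.42 to 0.44). Exons of Mlx overlap those of Psmc3ip on the opposite strand, which had 0.961 to 36.4 CPM, and the strand setting of the counting is not stated, so reads of the 2 genes may not be fully separated.

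Among the antagonists, Mxd1 (also called Mad1, known for its induction in differentiating cells) and Mxi1 (a Mad family member) rose together and briefly. In KO mice 1 to 5 Mxd1 stood at 26.1, 33.9, 49.6, 23.7 and 30.4 CPM at 0h, at 177, 197, 126, 182 and 167 CPM at 2h, and at 36, 22.9, 19.4, 23.6 and 35.5 CPM at 6h. At 12h and 24h every KO library lay between 11.9 and 16.3 CPM. In WT mice 1 to 5 Mxd1 stood at 15.6, 31.2, 20.3, 16.9 and 32.5 CPM at 0h and at 40.2, 110, 150, 48.4 and 130 CPM at 2h. Every 2h library was above every 0h library of its genotype. Later WT levels were 29.7, 21.4, 19, 38.9 and 14.3 CPM at 6h, 40.5, 11, 13.9, 39.2 and 11.7 CPM at 12h, and 55.3, 17.9, 13.4, 29.3 and 16.5 CPM at 24h. WT mice 1 and 4 were the lowest WT mice at 2h and the highest from 6h on. The log2 change of Mxd1 at 2h was 2.38 in KO cells (SE 0.373, adjusted p = 1.85e-06) and 2.03 in WT cells (SE 0.369, adjusted p = 3.92e-05; edgeR), or 2.19 without WT mice 1 and 4. At 6h against 2h it fell by 2.63 in KO cells (adjusted p = 2.83e-07) and 1.95 in WT cells (adjusted p = 6.82e-05). Against 0h, Mxd1 fell by 1.2 and 1.24 in KO cells at 12h and 24h, and without KO mouse 3 the 12h value was -0.96 (adjusted p = 0.0549). The same comparisons in 5 WT mice gave 0.00 and 0.18, and without WT mice 1 and 4 they gave -1.25 and -0.82, both called.

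Mxi1 (chr19:53310518-53375810, plus strand) had 78.3, 96.5, 81.4, 89.5 and 73.7 CPM in the 5 KO mice at 2h, against 15.9 to 21.8 CPM at 0h. In WT mice it had 40.6, 66.7, 64.6, 44.6 and 81.4 CPM at 2h, against 14.2 to 32.2 CPM at 0h, so that the 2h and 0h ranges did not overlap in either genotype. The log2 change was 2.16 in KO cells (SE 0.272, adjusted p = 2.64e-08) and 1.27 in WT cells (adjusted p = 0.00026; 1.8 without WT mice 1 and 4). Exons of Mxi1 overlap those of Gm10197 on the opposite strand, which had 0 counts in every library. By 6h Mxi1 had fallen to 6.52 to 12.1 CPM in KO cells, a log2 change of -3.22 from 2h (adjusted p = 1.4e-11), and the WT change was -2.15 (adjusted p = 1.22e-07). From 6h to 24h it stayed below its 0h level, by 1.06, 1.08 and 0.97 in KO cells and by 0.87, 0.68 and 0.89 in WT cells (all called; the WT value at 12h was -0.42 with adjusted p = 0.0521 without WT mice 1 and 4, and the call was lost without KO mouse 4, WT mouse 2 or WT mouse 4).

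Mxd4 (also called Mad4; chr5:34173883-34187720, minus strand) was the most abundant of the 4 Mad genes by CPM per kilobase at 0h and 2h in KO cells, and its later fall was the largest among the well-detected members. In KO mice 1 to 5 it stood at 109, 139, 129, 101 and 96.1 CPM at 0h and at 245, 284, 263, 235 and 238 CPM at 2h. It then stood at 26.5, 16.4, 15.9, 19.8 and 22.1 CPM at 6h, at 16.5, 28.4, 20, 23 and 12.7 CPM at 12h, and at 6.95, 8.16, 6.9, 6.82 and 6.18 CPM at 24h. Every KO library from 6h on was below every KO library at 0h. In WT mice 1 to 5 Mxd4 stood at 79.2, 158, 200, 87.2 and 177 CPM at 0h and at 139, 303, 234, 129 and 288 CPM at 2h. Later WT levels were 260, 21, 15.3, 161 and 16.4 CPM at 6h, 346, 28.6, 35.7, 163 and 35.5 CPM at 12h, and 241, 8.73, 9.37, 54.7 and 8.98 CPM at 24h. WT mice 1 and 4 had the lowest WT levels at 0h and 2h and by far the highest at 6h, 12h and 24h. The KO changes against 0h were 1.14 at 2h (adjusted p = 0.189), -2.51 at 6h (adjusted p = 0.00351), -2.51 at 12h (adjusted p = 0.0032) and -4.03 at 24h (SE 0.771, adjusted p = 2.6e-05; edgeR). The 2h value in KO cells was 1.11 (adjusted p = 1.13e-07) in the fit without WT mice 1 and 4, whose spread enters all comparisons, and the 2h and 0h ranges of KO mice did not overlap. With all 5 WT mice edgeR called no change against 0h (0.64, -0.57, -0.20 and -1.12, lowest adjusted p = 0.186), and limma-voom called that at 24h (-2.47, adjusted p = 0.00339). All 4 were called in WT mice 2, 3 and 5 alone, at 0.62, -3.35, -2.47 and -4.30, and with each mouse as a block the 6h, 12h and 24h changes were called at -1.93, -1.44 and -2.76. Exons of Mxd4 overlap those of the antisense gene Gm42846, which is not a row of the count table, so antisense reads may be part of the Mxd4 counts if strand was not used.

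Mxd3 (also called Mad3; chr13:55325168-55329823, minus strand), the Mad family member known for expression in cycling cells, followed another course. In KO mice it stood at 2.53, 2.78, 7.23, 6.77 and 13.5 CPM at 0h, was at most 3.10 CPM in every library at 2h, 6h and 12h, and reached 17.7, 21.2, 15.3, 18.4 and 15.3 CPM at 24h. In WT mice 1 and 4 it was at 78.2 and 59.6 CPM at 0h, 60.6 and 48.4 CPM at 2h, 60.3 and 48.1 CPM at 6h, 13.3 and 9.59 CPM at 12h, and 18.2 and 18.7 CPM at 24h. In WT mice 2, 3 and 5 it was at 2.30, 5.97 and 2.06 CPM at 0h, at most 1.71 CPM at 2h, 6h and 12h, and at 18.4, 18.3 and 16.9 CPM at 24h. Within each mouse Mxd3 was highest at 24h in the other 8 mice and at 0h in WT mice 1 and 4. The summed G2 and mitosis genes stood at 104 to 478 CPM in KO mice, 738 and 1181 CPM for WT mice 1 and 4, and 92.2 to 98.2 CPM for the other 3 WT mice at 12h. At 24h their sums were 2789 to 3110 CPM in KO mice, 1891 and 2369 CPM for WT mice 1 and 4, and 2809 to 3152 CPM for the other 3, and their part in the result was not tested. Against 0h, the KO values at the 4 later times were -2.21, -2.77, -2.38 and 1.42, of which the 6h fall was called (adjusted p = 0.0398), and no longer so without any 1 of the KO mice (-2.86 to -2.64). With each mouse as a block the 2h, 12h and 24h values were called as well (-2.22, -2.42 and 1.82). In WT cells the values were -0.39, -0.42, -2.57 and -0.71, with none called by edgeR, and DESeq2 called that at 12h (-2.59, adjusted p = 0.0215). The block gave -2.43 at 12h and 1.77 at 24h, both called, and in WT mice 2, 3 and 5 alone all 4 were called, at -1.55, -1.93, -2.38 and 2.42. The rise of Mxd3 at 24h over 12h was called in KO cells, at 3.80 (SE 1.18, adjusted p = 0.0321), but not without KO mouse 1, 2, 3 or 4 (3.57 to 3.88). In WT cells it was 1.86 (adjusted p = 0.253), 4.79 without WT mice 1 and 4 (adjusted p = 1.99e-06) and 4.20 with each mouse as a block (adjusted p = 1.09e-05). Exons of Mxd3 overlap those of Prelid1 on the opposite strand, which had 64.8 to 209 CPM, and the same limit on separating strands holds.

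Mnt, the broadly expressed antagonist (chr11:74830920-74845725, plus strand), rose by smaller log2 values than Mxd1 and Mxi1, and in KO cells was called higher at 6h as well as at 2h. In KO libraries it ranged from 46.5 to 57.4 CPM at 0h, from 88.9 to 126 at 2h, from 66.9 to 99.5 at 6h, from 56.9 to 61.5 at 12h, then from 45.7 to 46.6 at 24h. Its WT range was 43.9 to 73.2 CPM at 0h, then 51.1 to 117 at 2h, 30.5 to 76.7 at 6h, 30.2 to 48.8 at 12h and 44.5 to 67.3 at 24h. The KO ranges at 2h and 6h lay above the KO range at 0h. The log2 change was 0.98 at 2h (SE 0.192, adjusted p = 6.94e-05) and 0.74 at 6h (adjusted p = 0.00139) in KO cells, and 0.61 at 2h (adjusted p = 0.0137; 0.72 without WT mice 1 and 4) and 0.07 at 6h (adjusted p = 0.823) in WT cells. The WT call at 2h was lost without WT mouse 3 or WT mouse 5 (0.51 each). In WT mice 2, 3 and 5 alone, Mnt fell by 0.69 at 12h in WT cells (adjusted p = 0.000521), against -0.41 (adjusted p = 0.0811) in all 5.

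**Figure D2:**
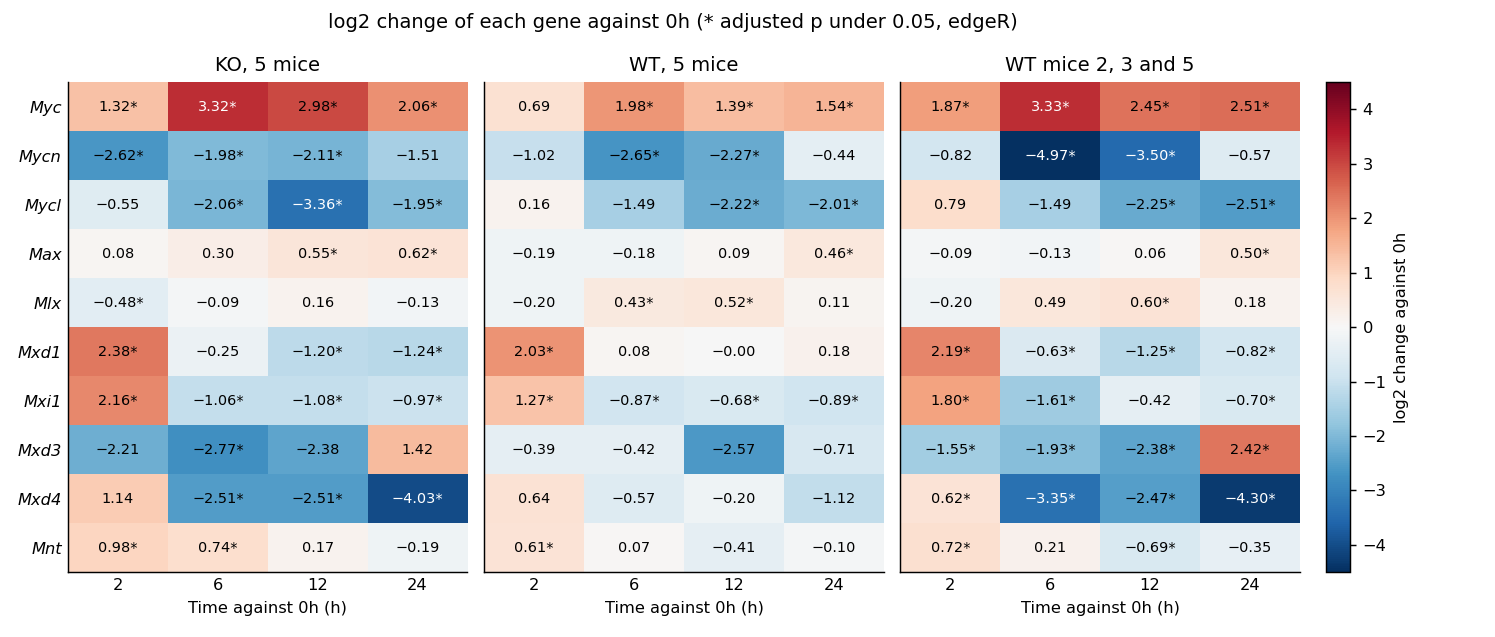
Log2 change of each network gene (rows) at 2h, 6h, 12h and 24h against 0h (columns) in KO mice, in all 5 WT mice and in WT mice 2, 3 and 5, with red for higher and blue for lower and an asterisk for an adjusted p under 0.05 in edgeR. Myc rises by up to 3.32 in KO cells and Mxd4 falls by up to 4.03, and the column block of WT mice 2, 3 and 5 gives -4.30 for Mxd4 at 24h where all 5 WT mice give -1.12.

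Counted over the network, 4 of 10 members rose and 2 fell at 2h in KO cells, where 20.3% of all 13294 genes tested rose and 19.6% fell (39.9% called). At 6h 2 rose and 5 fell (26.8% and 22.4% of all genes, 49.2% called). At 12h again 2 rose and 5 fell (27.8% and 25%, 52.8% called), and at 24h 2 rose and 4 fell (30.7% and 28%, 58.7% called). In WT cells 3 rose and 0 fell at 2h (14% and 16.2% of all genes, 30.2% called), and 2 rose and 2 fell at 6h (20.2% and 19.7%, 39.9% called). At 12h 2 rose and 3 fell in WT cells (19.3% and 20.2%, 39.4% called), and at 24h 2 rose and 2 fell (19.9% and 24.2%, 44.1% called). From 2h to 6h, 1 rose and 3 fell in KO cells (43.2% of all genes) and 2 rose and 3 fell in WT cells (29.3%). From 6h to 12h edgeR called 0 members in both genotypes (2.86% of all genes in KO and 0.609% in WT), with 2 members in KO and 1 in WT under an unadjusted p of 0.05 and 0 by DESeq2 or limma-voom. From 12h to 24h Mxd3 alone was called in KO cells (10% of all genes). In WT cells 0 were (15.1%), with 3 under an unadjusted p of 0.05, 1 by DESeq2 and 0 by limma-voom. WT mice 2, 3 and 5 alone had 5 members up and 1 down at 2h, 1 and 5 at 6h, 2 and 6 at 12h, and 3 and 4 at 24h, where 49.7%, 59.8%, 60.2% and 64.6% of all genes were called.

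The balance of activator and antagonist transcripts differed most between 2h and 6h. Summed per kilobase of exon, Mxd1, Mxi1, Mxd3, Mxd4 and Mnt stood at a mean of 35.0, 89.2, 26.9, 19.0 and 21.5 CPM per kilobase at the 5 times in KO cells and 47.8, 75.5, 38.3, 30.9 and 32.0 in WT cells. The order of the genotypes at 6h depended on WT mice 1 and 4. The sum was then 18.3 to 23.7 in WT mice 2, 3 and 5, below all KO mice (24.7 to 31.6). In WT mice 1 and 4 it was 70.96 and 57.05. At 12h it was at most 19.3 in WT mice 2, 3 and 5 and at most 19.9 in KO mice. WT mice 1 and 4 were then at 63.9 and 40.5. Myc over this sum averaged 1.64, 1.57, 21.2, 23.8 and 11.1 in KO cells and 1.56, 1.66, 13.4, 10.2 and 8.64 in WT cells. In KO cells the ratio was 1.39 to 1.97 over the mice at 0h and 1.17 to 2.15 at 2h, ranges that overlapped, while both parts of it were higher at 2h. The antagonist sum was then lower and Myc higher at 6h. In WT mice 2, 3 and 5 the ratio averaged 1.02, 1.97, 21.1, 14.8 and 10.9, and in WT mice 1 and 4 it averaged 2.38, 1.19, 1.84, 3.16 and 5.21. At 12h it was 22.2 to 25.1 in KO mice and 13.1 to 16.7 in WT mice 2, 3 and 5, ranges that did not overlap. These ratios compare transcripts only and carry no test, since the members were chosen with earlier results known.

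**Figure D3:**
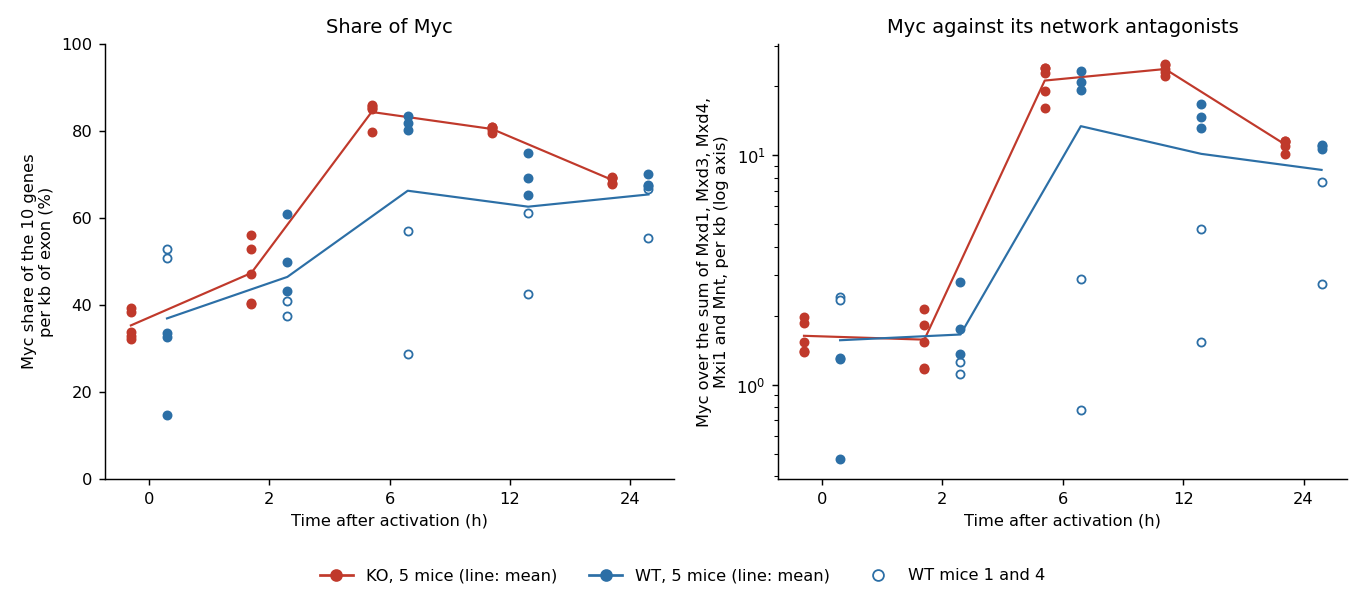
Share of Myc in the summed level of the 10 genes (left, percent of CPM per kilobase of exon) and the level of Myc over the summed level of Mxd1, Mxi1, Mxd3, Mxd4 and Mnt (right, log axis) against hours of activation, 1 point per library, with lines through the means of 5 KO mice and 5 WT mice and open points for WT mice 1 and 4. The mean share in KO cells is 35.3% at 0h and 84.4% at 6h, and at 12h the 5 KO libraries lie at ratios of 22.2 to 25.1, above all WT libraries.

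The make-up of the antagonist pool differed between times in KO cells. In KO cells Mxd4 made up a mean of 38.5% of the summed antagonist level at 0h and 33.6% at 2h, but 8.78%, 12.4% and 3.82% at 6h, 12h and 24h. Mnt took 32.6% and 25% at 0h and 2h, and 70.4%, 67.4% and 46.3% at 6h, 12h and 24h. Mxd1 had its highest mean share, 26.9%, at 2h, and Mxd3 had its highest, 34.3%, at 24h, against 0.684% at 2h. The mean share of Mxd4 in WT mice 2, 3 and 5 was 49.7%, 38.8%, 9.78%, 23.8% and 4.65% at the 5 times, and that of Mnt was 30.7%, 26.1%, 71.8%, 50.1% and 44.7%. WT mice 1 and 4 had another order, with mean Mxd4 shares of 17.8%, 24.9%, 38.2%, 55.6% and 34.1% and mean Mnt shares of 17.7%, 19.1%, 12.9%, 19.3% and 27.9%.

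Between genotypes, 7 differences of members passed the test, and 3 of them, those of Myc, Mxi1 and Mxd4 at 12h, also did without WT mice 1 and 4. DESeq2 called these 3 as well, and so did a block for the replicate number, although numbers do not pair KO with WT mice. By limma-voom none of them passed (adjusted p = 0.0599 for Myc, 0.0699 for Mxi1 and 0.0756 for Mxd4), and with no filter on low counts Myc and Mxi1 did not (adjusted p = 0.0561 and 0.0651). Scaled by library totals, Myc had an adjusted p of 0.0502. Myc at 12h was higher in KO cells (1198 to 1268 CPM) than in WT cells (266 to 877 CPM), with a log2 difference of 1.12 (SE 0.383, adjusted p = 0.0458). With WT mice 2, 3 and 5 only, the WT range was 534 to 877 CPM and the difference was 0.89 (SE 0.255, adjusted p = 0.0107). Of 10 fits that left out 1 mouse, the call held without WT mouse 1 or WT mouse 3 and was lost in the other 8, and the difference ran from 0.94 to 1.35. At 6h Myc differed by 0.87 (adjusted p = 0.127), and at 0h, 2h and 24h by -0.47, 0.15 and 0.05, none of them called. The order of the means at 0h depended on WT mice 1 and 4. Mean Myc was then 155 CPM in KO mice, 216 CPM in all 5 WT mice and 120 CPM in WT mice 2, 3 and 5, with overlapping ranges.

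Mxi1 at 12h was the clearest opposite case: it stood at 8.01 to 10.2 CPM in the 5 KO mice and at 15 to 16.3 CPM in the 5 WT mice. The log2 difference was -0.80 (SE 0.265, adjusted p = 0.0398) and -0.78 without WT mice 1 and 4 (SE 0.166, adjusted p = 0.00089), and the call was lost without any 1 of the KO mice, WT mouse 2 or WT mouse 4 (-0.85 to -0.76). Mnt at 12h stood at 58.8, 59.6, 59.4, 61.5 and 56.9 CPM in KO mice and at 44.3, 37.4, 48.8, 44.1 and 30.2 CPM in WT mice. The groups did not overlap, and the log2 difference was 0.53 (adjusted p = 0.0564) with all mice and 0.64 (adjusted p = 0.00223) without WT mice 1 and 4. At 6h Mnt was higher in KO cells by 0.62 (adjusted p = 0.035), a difference of 0.30 (adjusted p = 0.265) without WT mice 1 and 4, and the call was lost without KO mouse 1, 2, 3 or 4, WT mouse 1 (0.45) or WT mouse 4 (0.53).

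Mxd4 at 12h was lower in KO cells by 2.60 on the log2 scale (adjusted p = 0.0169), and by 0.69 without WT mice 1 and 4 (SE 0.173, adjusted p = 0.00409). The call was lost without KO mouse 1, 3, 4 or 5 (-2.65 to -2.47). Its 6h difference of -2.23 (adjusted p = 0.039) turned to 0.18 (adjusted p = 0.63) without WT mice 1 and 4. With the replicate number as a block it was -1.77 (adjusted p = 0.0829), and without WT mouse 1 it was -1.41 (adjusted p = 0.146). It was also lost without WT mouse 4 or any 1 of the KO mice. At 24h Mxd4 was below every WT library in every KO library (6.18 to 8.16 against 8.73 to 241 CPM). The difference was -3.20 (adjusted p = 0.11), and DESeq2 called it (-3.25, adjusted p = 0.000406) while limma-voom did not. WT mice 1 and 4 stood at 241 and 54.7 CPM, against 8.73 to 9.37 CPM in WT mice 2, 3 and 5. Without WT mice 1 and 4 edgeR did not call the 24h difference. At 0h Mxd4 differed by -0.29 (adjusted p = 0.817) with all mice. Against WT mice 2, 3 and 5 alone it was lower in KO cells by 0.63 (adjusted p = 0.00858), with 96.1 to 139 CPM in KO mice and 158 to 200 CPM in WT mice 2, 3 and 5. The differences of Mxd3, -3.99 at 2h (adjusted p = 0.0265) and -4.54 at 6h (adjusted p = 0.0208), turned to 0.29 and 0.10 without WT mice 1 and 4 (adjusted p = 0.851 and 0.95). With the replicate number as a block they were -2.75 (adjusted p = 0.0965) and -3.35 (adjusted p = 0.0561). Without WT mouse 1 alone they were -3.19 and -3.74, and both calls were lost without WT mouse 1 or 4 or KO mouse 1, 2, 3 or 4.

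In all, edgeR called 0 members between KO and WT cells at 0h (7.93% of all genes called) and 0 at 24h (0.0451%). It called 1 at 2h, lower in KO (2.9% of all genes higher and 8.9% lower, 11.8% called), and 3 at 6h (10.1% called). At 12h it called 3, with 1 higher and 2 lower in KO cells (5.54% and 7.55% of all genes, 13.1% called). At 0h 1 member and at 24h 2 members had an unadjusted p under 0.05, and DESeq2 called 0 and 1 there and limma-voom 0 and 0. Against WT mice 2, 3 and 5 alone the counts over the 5 times were 1, 0, 1, 4 and 0, where 22.4%, 4.1%, 4.16%, 23% and 0.0453% of all genes were called. The summed level of 3 NK cell genes (Ncr1, Klrb1c and Eomes, the last also made by activated CD8+ cells) was 120 to 335 CPM in KO mice at 12h, against 14.7 and 68.0 CPM for WT mice 1 and 4 and 58.5 to 82.1 CPM for the other 3, and its part in the result was not tested. The fit treats the 5 libraries of a mouse as independent, so these p-values may be too small. A direct test of whether the change from 0h differed between genotypes called 0 of 40 member and time pairs (0.015%, 2.47%, 7.5% and 0.0752% of all genes at 2h, 6h, 12h and 24h), with 12 under an unadjusted p of 0.05, 1 by DESeq2 and 0 by limma-voom. For Myc at 12h this difference of changes was 1.59 (SE 0.538, adjusted p = 0.0591), 1.84 with each mouse as a block (adjusted p = 0.0276) and 0.52 without WT mice 1 and 4 (adjusted p = 0.315). For Max at 12h it was 0.47 (adjusted p = 0.145), and 0.47 with the block (adjusted p = 0.0419).

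**Figure D4:**
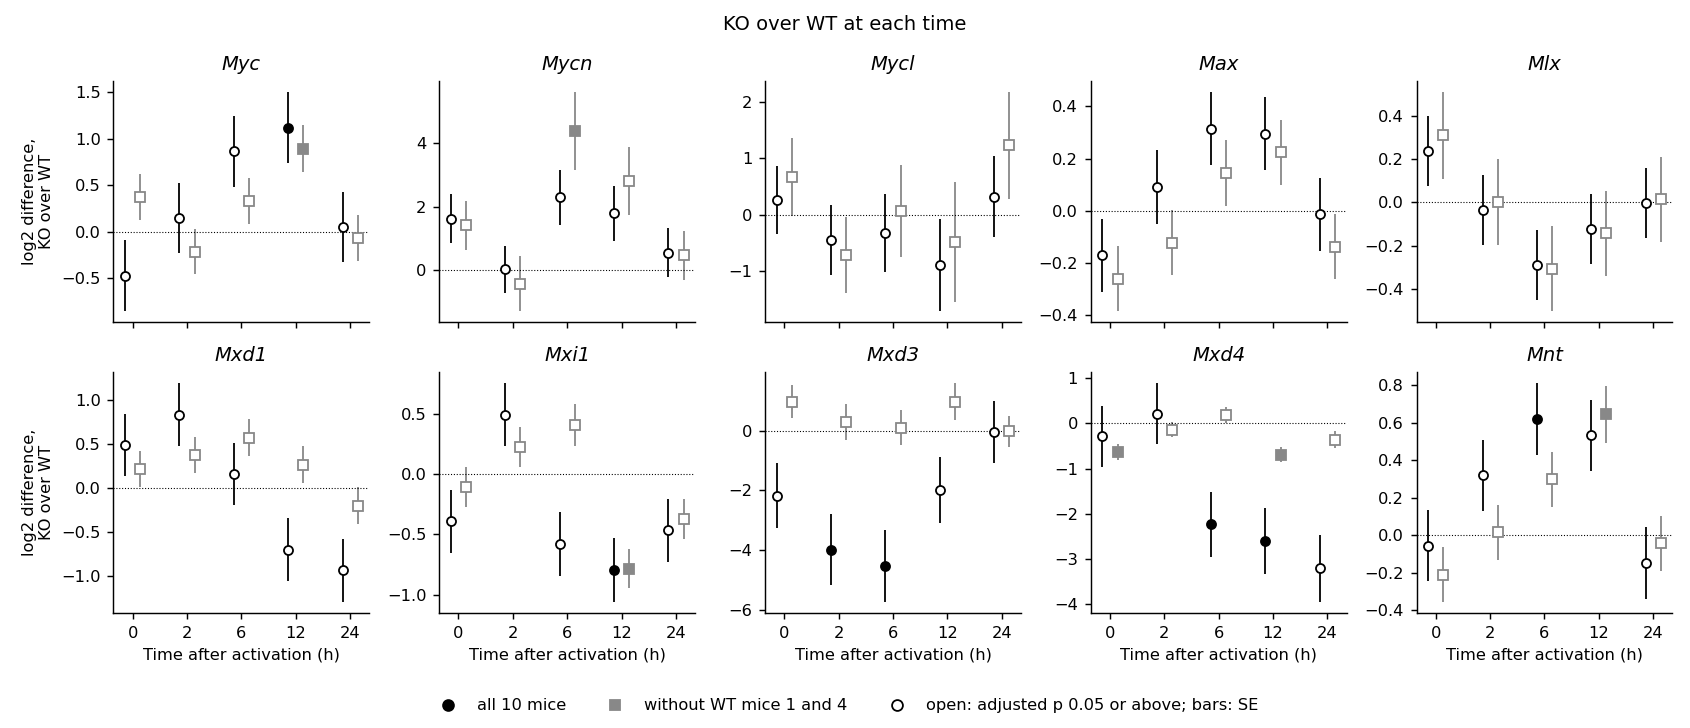
Log2 difference, KO over WT, of each network gene (vertical axes, one scale per gene, bars ± 1 SE) at 0h, 2h, 6h, 12h and 24h, with circles for all 10 mice, squares without WT mice 1 and 4, and filled symbols for an adjusted p under 0.05 in edgeR. Myc (1.12 and 0.89), Mxi1 (-0.80 and -0.78) and Mxd4 (-2.60 and -0.69) at 12h are filled both ways, while Mxd3 at 6h is -4.54 with and 0.10 without these mice.

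Of the wider network, Mga, a large Max-binding repressor subunit, rose at 6h in both genotypes, by 0.90 in KO cells (adjusted p = 0.000527) and 0.74 in WT cells (adjusted p = 0.00454). Mlxip, a glucose-sensing partner of Mlx, was not called against 0h by edgeR with all mice. With each mouse as a block it was lower at 24h in KO cells (-0.47, adjusted p = 0.0325). In the fit without WT mice 1 and 4 it was higher at 6h in KO cells (0.35, adjusted p = 0.0348) and lower at 24h in KO cells (-0.47, adjusted p = 0.00493) and in WT cells (-0.51, adjusted p = 0.0176). Mlxipl had too few counts to test.

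The 57 listed MYC target genes, all of them tested, were mostly higher from 6h on and not at 2h. At 2h, when Myc had already risen in KO cells, 9 of 57 were higher and 10 lower in KO cells. These counts were near the shares of all genes, 20.3% higher and 19.6% lower. The median log2 change was -0.04 against -0.08 for all genes. At 6h 47 were higher and 2 lower in KO cells (26.8% and 22.4% of all genes), with a median of 1.71 against -0.04 for all genes. In WT cells 37 were higher and 1 lower at 6h (20.2% and 19.7% of all genes), with a median of 1.05 against -0.05. At 12h the counts were 50 and 1 in KO cells (27.8% and 25% of all genes) and 40 and 2 in WT cells (19.3% and 20.2%). At 24h they were 50 and 1 in KO cells (30.7% and 28%) and 43 and 1 in WT cells (19.9% and 24.2%). In WT mice 2, 3 and 5 alone the counts at 6h were 46 and 4 (59.8% of all genes called), with a median of 1.76.

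Hk2, the hexokinase that commits glucose to glycolysis, had the largest change of the list at 6h, 12h and 24h in KO cells, with log2 values of 4.77, 4.88 and 5.14 (adjusted p = 3.97e-07, 2.66e-07 and 1.14e-07). In WT cells it rose by 2.12 at 6h and 3.04 at 24h, and by 5.39 and 6.08 without WT mice 1 and 4. The nucleoside transporter gene Slc29a2 rose by 3.60 at 6h in KO cells and 2.75 in WT cells, and the folate transporter gene Slc19a1 by 3.14 in KO cells and 2.17 in WT cells. Tmem97, a sterol-regulated membrane protein gene, rose by 3.14 at 24h in KO cells, and Nip7, a ribosome assembly gene, by 1.84 at 12h in WT cells. At 2h Dusp2, a phosphatase of the MAP kinase pathway that is itself an early response gene, rose by 2.33 in KO cells and 1.66 in WT cells, and the mitotic kinase gene Plk1 fell by 2.99 in KO cells before rising by 2.91 over 0h at 24h.

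Between genotypes, 5 targets were higher and 0 lower in KO cells at 12h (5.54% of all genes were called higher and 7.55% lower). Without WT mice 1 and 4, 11 were higher and 7 lower (23% of all genes called). The largest were Tcof1, a ribosomal RNA transcription factor gene, at 1.14 (adjusted p = 0.00719; 1.21 without WT mice 1 and 4), Srm, which makes spermidine, at 1.13 (adjusted p = 0.0404; 0.87 without), and Pprc1 at 1.03 (adjusted p = 0.0162; 0.78 without). At 2h 0 were higher and 7 lower (2.9% and 8.9% of all genes), among them Plk1 at -4.13 and Sord at -4.00. Without WT mice 1 and 4 these 2 values became -0.45 and -0.08, with neither called.

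**Figure D5:**
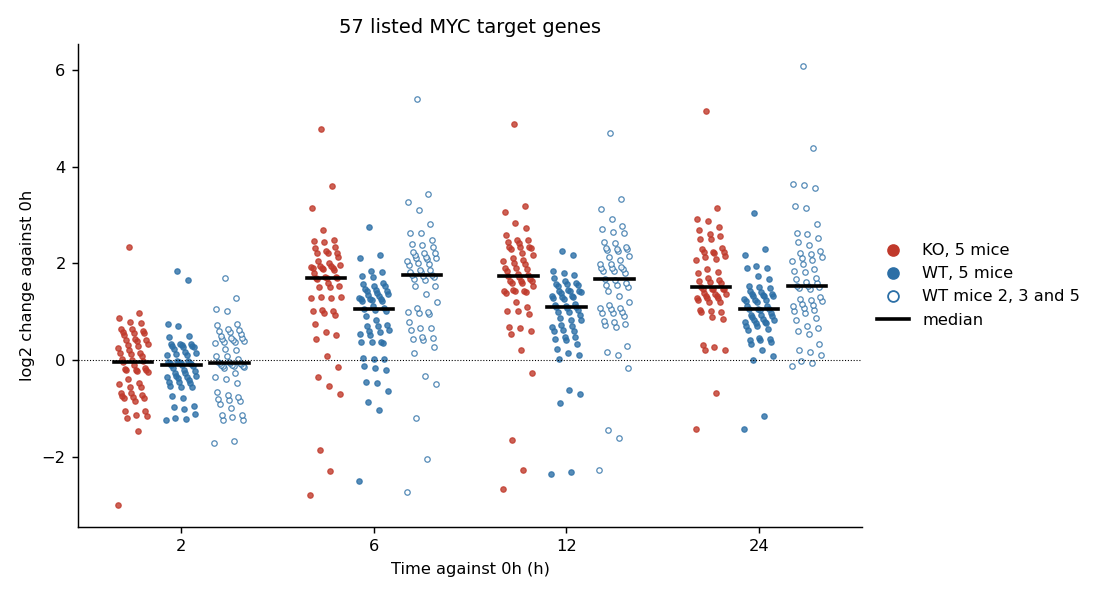
Log2 change against 0h (vertical axis) of 57 listed MYC target genes, 1 point per gene, at 2h, 6h, 12h and 24h (horizontal axis) in KO mice, all 5 WT mice and WT mice 2, 3 and 5, with black lines at the medians. The medians lie at -0.04 (KO) and -0.09 (5 WT mice) at 2h, and at 1.71 and 1.05 at 6h.

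Genes whose products work with Myc on chromatin were listed separately. Of 17 such cofactors, 6 were higher and 2 lower at 2h in KO cells, 8 and 0 at 6h, 12 and 0 at 12h, and 12 and 0 at 24h, with medians of 0.18, 0.56, 0.64 and 0.59 against -0.08, -0.04, -0.03 and 0.02 for all genes. Over all genes, 20.3%, 26.8%, 27.8% and 30.7% rose in KO cells at these times and 19.6%, 22.4%, 25% and 28% fell. In WT cells the cofactor counts were 3 and 2, 5 and 5, 5 and 4, and 7 and 0. There 14%, 20.2%, 19.3% and 19.9% of all genes rose and 16.2%, 19.7%, 20.2% and 24.2% fell, and the 2h counts were near these shares. Without WT mice 1 and 4 the WT counts were 6 and 2, 9 and 3, 7 and 6, and 9 and 2, where 49.7%, 59.8%, 60.2% and 64.6% of all genes were called. The AAA+ ATPase genes Ruvbl1 and Ruvbl2 rose by 2.27 and 1.90 at 12h in KO cells and by 1.43 and 0.77 in WT cells (2.77 and 1.79 without WT mice 1 and 4). The acetyltransferase gene Kat2a fell at 2h, by 1.5 in KO cells and 1.19 in WT cells, while the elongation factor gene Ccnt1 rose by 1.37 and 1.17. At 12h 5 cofactors were higher and 0 lower in KO than in WT cells (5.54% and 7.55% of all genes). Among them were Kat2a (0.77) and Wdr5, a histone methyltransferase subunit (0.63). Without WT mice 1 and 4 the counts were 8 and 0 (23% of all genes called). The changes from 0h to 12h differed between genotypes for 9 cofactors, all higher in KO cells (5.54% of all genes higher and 1.96% lower), and for 11 higher and 1 lower without WT mice 1 and 4 (20.5% of all genes called).

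Of 18 regulators of Myc protein stability and activity, 7 were higher and 1 lower at 2h in KO cells, and 6 and 4, 8 and 3, and 8 and 3 at 6h, 12h and 24h, with medians of 0.27, 0.23, 0.39 and 0.41 against -0.08, -0.04, -0.03 and 0.02 for all genes. At these times 20.3%, 26.8%, 27.8% and 30.7% of all genes rose in KO cells and 19.6%, 22.4%, 25% and 28% fell, and the 6h counts were near these shares. In WT cells the counts were 3 and 1, 4 and 7, 1 and 6, and 5 and 3, where 14%, 20.2%, 19.3% and 19.9% of all genes rose and 16.2%, 19.7%, 20.2% and 24.2% fell. Without WT mice 1 and 4 they were 6 and 4, 7 and 6, 8 and 6, and 9 and 3, where 49.7%, 59.8%, 60.2% and 64.6% of all genes were called. The kinase gene Pim1 rose by 2.31 at 2h and 2.29 at 6h in KO cells and by 1.68 and 1.43 in WT cells. It was higher in KO than in WT cells by 1.23 at 6h (adjusted p = 0.0359; 0.70 without WT mice 1 and 4) and 1.26 at 12h (adjusted p = 0.0266; 1.01 without). The ubiquitin ligase gene Fbxo32 rose at 2h (1.69 in KO and 1.55 in WT cells) and fell at 6h (-1.59 and -1.23) and 24h (-2.74 and -1.67), and the WT falls were -2.25 and -2.94 without WT mice 1 and 4. The deubiquitinase gene Usp28 fell by 1.37 at 12h in KO cells and by 1.5 in WT cells.

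Of 10 listed corepressors that Mxd proteins and Mnt recruit, 4 were higher and 1 lower at 2h in KO cells, and 3 and 2, 3 and 1, and 3 and 2 at the later times, with medians of 0.14, 0.28, 0.04 and 0.11 against -0.08, -0.04, -0.03 and 0.02 for all genes, while WT cells had 2 and 0, 2 and 2, 1 and 2, and 0 and 4 (14%, 20.2%, 19.3% and 19.9% of all genes rose and 16.2%, 19.7%, 20.2% and 24.2% fell). In WT mice 2, 3 and 5 alone the counts were 4 and 1, 3 and 3, 2 and 2, and 3 and 4. In that fit 49.7%, 59.8%, 60.2% and 64.6% of all genes were called. The corepressor counts at 2h, 6h and 24h were near these shares. Over all genes in KO cells, 20.3%, 26.8%, 27.8% and 30.7% rose and 19.6%, 22.4%, 25% and 28% fell at the 4 times, and the counts of higher corepressors from 6h on were near these shares. Sap30, a Sin3 complex subunit gene, rose by 1.74 at 6h in KO cells, and Arid4b rose by 1.60 at 2h and fell by 1.24 at 24h in KO cells. Between genotypes at 12h Sin3b was lower in KO cells by 0.41 (adjusted p = 0.0471; 0.40 without WT mice 1 and 4).

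Likeness of pattern was measured as Pearson's r of mean log2 CPM over the 10 groups among 8584 genes, as a description of groups that share mice and times. The genes most like Myc were Yrdc (r = 0.989), Dhx33 (0.987), Slc39a14 (0.985), Itgav and Dgat2 (0.980 each), and only Yrdc remained among the first 5 without WT mice 1 and 4. Those most like Max were Ints5 (0.974), Actn4, Pfkl, Prpf8 and Scaf11, of which Pfkl and Scaf11 remained. Those most like Mxd4 were Bnip3l (0.986), Pfkfb2, Zkscan14, Inpp5k and Frat2, of which Inpp5k remained. Among the members themselves, the closest pair was Mxd1 and Mxi1 (r = 0.920), followed by Mxd4 and Mxi1 (0.865), and the most opposed were Max and Mxd4 (r = -0.820) and Myc and Mycl (-0.817).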

How the data were processed

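Raw read counts per gene for 50 libraries were deposited by the authors, with no normalization. Per the submitters' processing notes, the tools used were CASAVA 1.8.2, featureCounts 1.4.6 and STAR 2.4 with build GRCm38, while the annotation release and strand setting are not given in the sources used here. Symbols, positions and exon lengths came from GENCODE M21, which matched 21583 of 21647 identifiers, and 0 columns were left out.

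Each of 2 genotypes at 5 times was a group of 5 mice. Genes kept by edgeR's filterByExpr (minimum count 10, minimum total 15; 13294 genes) were scaled by TMM and tested with edgeR 4.0.16 (R 4.3.3) by the robust quasi-likelihood test, with 1 mean per group, 40 residual degrees of freedom and Benjamini-Hochberg adjustment over all genes tested. A gene was called at an adjusted p under 0.05. CPM used TMM-scaled totals, and CPM per kilobase divided them by exon length. The procedure was tested on simulated counts with a fixed dispersion and no effect of mouse. That test cannot show how the fit behaves when libraries share a mouse or when single mice stand apart.

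Alternatives were DESeq2 1.42.0, limma-voom (limma 3.58.1), RLE scaling, library totals, no filter, fits on the groups compared only and a replicate block. The block was each mouse within genotypes and for the difference of changes. Between KO and WT it was the replicate number, which each KO mouse shares with a WT mouse. Other fits left out each mouse, WT mice 1 and 4 or, chosen after seeing the data, the 0h library of WT mouse 3. A number within a genotype marks 1 animal at all 5 times per the labels. Deviations from group means of the same animal correlated at a mean r of 0.172 to 0.296 in KO and 0.379 to 0.64 in WT mice, and the same number across genotypes at -0.167 to 0.115, so numbers pair libraries within a genotype only.

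The members and gene lists were chosen with earlier results of these data known. Besides the members, Mga, Mlxip and Mlxipl, the text names from each list up to 3 genes per comparison with the largest absolute log2 value among called genes averaging at least 5 CPM, and the 5 genes most like Myc, Max and Mxd4 (at least 20 CPM in their highest group). The check of the targeted gene, and some genes that this rule names, are not reported here.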

Additional observations from a re-analysis of the deposited data

Results flagged for a closer look

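In 8 of 100 groups (10 genes in 10 groups of 5 mice), 1 library lay far from the other 4, 5 of them in KO and 3 in WT mice, and chance gives about 1 in 20, or 5 of 100. Myc in KO mouse 5 at 6h was the lowest, 1086 CPM against 1613 CPM in the next mouse, and in KO mouse 4 at 24h the highest, 691 against 646 CPM. Mxd4 in WT mouse 1 at 24h was 241 CPM, against 54.7 CPM in WT mouse 4. Max in WT mouse 3 at 0h was 224 CPM, against 142 CPM in the next mouse. Mxd3 in KO mouse 5 at 6h was 2.04 CPM, against 0.878 CPM in the next mouse. Mycn in WT mouse 3 at 2h was 0.961 CPM, against 0.237 CPM. Mlx in KO mouse 1 at 0h was the lowest, 51.9 against 61.0 CPM, and in KO mouse 5 at 24h the highest, 60.9 against 55.3 CPM.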

How the results depend on the processing

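Without WT mice 1 and 4, 7 single-gene results reversed: Mxd1 in WT cells at 6h (-0.63) and 24h (-0.82), Mxd3 in WT cells at 24h (2.42), Mxd3 between KO and WT at 2h (0.29) and 6h (0.10), Mxd4 between KO and WT at 6h (0.18), and the difference of changes of Mxd4 at 6h (0.81). With a replicate block for each mouse, Mxd3 in WT cells at 24h was 1.77. The causes were not tested. Counts of member and time pairs called without WT mice 1 and 4 were, against 0h in WT cells, 27, where all mice gave 16 of 40. In steps between times they were 19 against 11 in KO cells and 22 against 8 in WT cells, and for the difference of changes 4 against 0. Over all genes, 30.2%, 39.9%, 39.4% and 44.1% were called against 0h in WT cells with all mice. Without WT mice 1 and 4 these shares were 49.7%, 59.8%, 60.2% and 64.6%. For the difference of changes at 12h, 7.5% of all genes were called with all mice and 20.5% without these mice. The Myc change at 2h in WT cells was 1.87 without WT mice 1 and 4. It was 0.43 when only the 0h library of WT mouse 3 was left out.

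The replicate block gave 4 calls between KO and WT, where it was the replicate number, and 2 for the difference of changes, where it was each mouse. Besides the block values given beside results, it added calls for Mycl in WT cells at 6h against 0h (-1.55) and in both genotypes at 6h against 2h. Also added at 6h against 2h were Mxd4 in WT (-2.55) and Mlx in KO cells (0.39). Further added calls were Mnt in KO cells at 12h against 6h (-0.56) and Max in WT cells at 24h against 12h (0.38). It changed no other call of a member. Between KO and WT, where the main count was 7 of 50, no filter gave 3 and limma-voom 2. DESeq2 gave 1 for the difference of changes, as did leaving out the 0h library of WT mouse 3. Fits on the groups compared only gave 24 calls for steps in KO cells and 4 against 0h in WT cells. RLE scaling and library totals moved none of these counts by over 1.5 times.

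Leaving out 1 mouse at a time gave 20 to 28 calls against 0h in KO cells (26 with all mice), 11 to 19 in WT cells, 8 to 16 and 6 to 14 for steps in KO and WT cells, 0 to 15 between KO and WT (0 without KO mouse 1, 3 or 4, 15 without WT mouse 3) and 0 to 3 for the difference of changes. Under them the Myc change at 2h ran from 1.17 to 1.5 in KO cells and from 0.20 to 1.12 in WT cells. Depth limits Mycn and Mycl, at 0 counts in 6 and 5 libraries.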
